A study of Mus musculus with 2 samples.

Results

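The iron handling and metallothionein genes were taken as every transcript probe of the array whose gene name was Hamp, Hamp2, Tfrc, Tfr2, Trf, Slc40a1, Fth1, Ftl1, Mt1 or Mt2. These 10 genes, of 37074 gene names on the array, were read by 16 probes of 56605. Among them, 6 genes had 2 probes and 4 had 1, and each of the 16 probes was printed once on an array. All 10 genes passed the filter on dim signals, and 14 of the 16 probes were well above background on both arrays.

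The study asked how loss of Drp1, the dynamin-related GTPase that divides mitochondria, alters gene expression in mouse primary hepatocytes. Drp1LiKO mice carried Alb-Cre Tg/+ and Drp1 flox/flox, so that Cre was driven by the albumin promoter, which is active in hepatocytes. Control mice were sibling littermates with Drp1 flox/flox and no Cre, which the labels name wild type control. Both were on a C57BL/6 background, and the ages of the mice used for the arrays are not given in the sources used here. The hepatocytes were isolated by collagenase perfusion and low-speed centrifugation, seeded on collagen in medium with insulin and fetal bovine serum, and harvested 24 h later, so both groups had been in culture. RNA of each genotype was hybridized to 1 array. Without replicates no test could be run, no p-value is given, and every ratio describes these 2 cultures only.

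Hepcidin, the product of Hamp, is the hormone by which the liver limits the entry of iron into plasma. It is made by hepatocytes and binds ferroportin, the iron exporter encoded by Slc40a1, which is then degraded. Its transcription follows iron through BMP ligands and SMAD factors, and follows inflammation through IL-6 and STAT3. Iron travels in plasma on transferrin, enters cells through transferrin receptors and is stored within ferritin shells. Metallothioneins are small cysteine-rich proteins that bind zinc and copper, and their genes respond to these metals through MTF1 as well as to glucocorticoids and oxidative stress.

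The values are background-corrected fluorescence signals, a linear intensity. For ratios, the log2 signal of a probe was taken relative to the 75th percentile of its array, which stood at 313 in control and 356 in Drp1LiKO cells. A log2 ratio is Drp1LiKO minus control, and a gene with 2 probes is represented by its brightest. The Z score of a ratio is its distance from the mean ratio of the 30275 probes compared, in units of their SD, which was 0.65 on the log2 scale. A Z score of 2 lay at a log2 ratio of 1.30 and a Z score of -2 at -1.31. Of 20165 genes compared, 3.5% were higher in Drp1LiKO cells past this threshold and 2.81% were lower. The SD between repeated spots is called spot noise. It was taken for each probe from transcript probes of like signal that were printed 10 times on each array, and it holds no variation between cultures or animals. The targeted gene, listed as Dnm1l, had signals of 2602 in control and 1217 in Drp1LiKO cells on its brightest probe. Its log2 ratio was -1.28 and its Z score -1.95, just short of the threshold. A second, dim Dnm1l probe had signals of 22.8 in control and 20.9 in Drp1LiKO cells. The log2 ratio of that probe was -0.31, within a spot noise of 0.38. Dnm1l passed the threshold under 6 of 12 other settings, among them normexp background correction, the deposited normalized values and a filter for probes well above background on both arrays. Over these 12 settings its log2 ratio ran from -1.34 to -0.79. Alb, the albumin gene that defines hepatocytes, had signals of 219613 in control and 266703 in Drp1LiKO cells.

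Hamp and Hamp2 are the 2 hepcidin genes of the mouse, and their probes are printed because Hamp was bright and Hamp2 was near background. The Hamp probe lies on chromosome 7 of mm9 from 31727490 to 31727549, and the Hamp2 probe from 31707520 to 31707579. Both sequences are those of the array design. Capitals mark the bases at which the probes differ when Hamp2 is shifted by 1 base. Over 59 overlapping positions, 42 bases were identical and 17 differed.
Hamp probe: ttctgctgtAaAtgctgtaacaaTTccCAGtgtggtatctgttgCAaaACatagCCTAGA
Hamp2 probe: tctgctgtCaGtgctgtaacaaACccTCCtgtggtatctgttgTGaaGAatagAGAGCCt

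The promoters of Hamp and Hamp2 were searched for the short elements through which hepcidin is known to be controlled, and they are printed for the 250 bases before the RefSeq start of GRCm38.p6, a different build from that of the probes. The Hamp window is chr7:30944030-30944279 on the minus strand, and the Hamp2 window is chr7:30924182-30924431 on the minus strand. Capitals mark 2 elements searched on both strands, the BMP response element GGCGCC and the STAT3 site TTCNNNGAA, and in Hamp2 also the bases aligned to the BMP response element of Hamp. Of 247 aligned positions, 227 (91.9%) were identical.
Hamp promoter: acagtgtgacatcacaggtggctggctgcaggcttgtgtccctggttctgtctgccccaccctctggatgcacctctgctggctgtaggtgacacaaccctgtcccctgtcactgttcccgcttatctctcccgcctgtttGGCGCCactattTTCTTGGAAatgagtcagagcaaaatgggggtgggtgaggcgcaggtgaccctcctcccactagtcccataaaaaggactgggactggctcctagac
Hamp2 promoter: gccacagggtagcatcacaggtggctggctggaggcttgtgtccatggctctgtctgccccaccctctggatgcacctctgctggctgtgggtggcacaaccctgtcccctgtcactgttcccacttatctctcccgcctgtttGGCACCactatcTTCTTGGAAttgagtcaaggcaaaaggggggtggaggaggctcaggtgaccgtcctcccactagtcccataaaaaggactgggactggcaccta
In Hamp, GGCGCC lay from -109 to -104 and TTCTTGGAA from -97 to -89, counted from the start. Hamp2 held the same STAT3 site from -94 to -86, while the 6 bases aligned to the BMP response element, from -106 to -101, read GGCACC. Among all 32851 promoter windows of 300 bases (250 before and 50 after the start), 11.9% held the BMP response element and 8.3% the STAT3 site. A match of letters is a description and does not show that a factor was bound in these cells.

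The promoters of Mt1 and Mt2 are printed because both genes had higher signals in Drp1LiKO cells. Capitals mark the metal response element to which MTF1 is known to bind, searched as TGCGCNC or TGCACNC on both strands. The Mt1 window is chr8:94178839-94179088 and the Mt2 window is chr8:94172368-94172617, both on the plus strand.
Mt1 promoter: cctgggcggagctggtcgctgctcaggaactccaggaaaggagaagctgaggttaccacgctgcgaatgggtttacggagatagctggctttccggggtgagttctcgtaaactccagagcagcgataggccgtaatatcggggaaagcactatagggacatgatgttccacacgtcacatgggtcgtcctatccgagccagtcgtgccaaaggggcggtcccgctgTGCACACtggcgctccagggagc
Mt2 promoter: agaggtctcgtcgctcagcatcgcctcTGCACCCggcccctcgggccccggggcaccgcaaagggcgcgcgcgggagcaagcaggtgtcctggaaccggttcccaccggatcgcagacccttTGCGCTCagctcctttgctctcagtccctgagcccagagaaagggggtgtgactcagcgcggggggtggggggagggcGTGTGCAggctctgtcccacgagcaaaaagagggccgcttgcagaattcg
Mt2 held 3 matches before its start, TGCACCC from -223 to -217, TGCGCTC from -128 to -122 and, on the other strand, a match from -50 to -44 printed as GTGTGCA. Mt1 held 1 match before its start, TGCACAC from -23 to -17. Its other matches lay just after that start, TGCACTC from 3 to 9 and TGCGCTC from 21 to 27. The count before the start thus depends on where the RefSeq start is placed, and is no measure of how many elements the Mt1 promoter holds. With the 50 bases after the start, which are not printed, Mt1 had 3 matches and Mt2 had 4. Of all windows, 25.7% held at least 1 match, 1.97% at least 3 and 0.517% at least 4. Of the 10 genes, 8 had a promoter in the table used, in 12 windows, and Trf and Slc40a1 had none there. In the other windows, Tfrc held GGCGCC from -89 to -84 and a pair of overlapping metal response elements from -53 to -47 and from -50 to -44.

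Hamp, which encodes hepcidin, was 4.98-fold lower in Drp1LiKO cells. Its signal was 24274 in control and 5534 in Drp1LiKO cells, and relative to the 75th percentile of each array it was 77.5 in control and 15.6 in Drp1LiKO cells. The log2 ratio of Hamp was -2.32 with a spot noise of 0.0826, and its Z score was -3.54. Hamp was the only one of the 10 genes past the threshold in either direction, against 3.5% of all genes past it on the higher side and 2.81% on the lower side. Of all genes compared, 0.893% had a lower ratio than Hamp and 98.2% a smaller ratio in absolute value. Hamp stayed past the threshold under each of 12 other settings, with log2 ratios from -2.32 to -1.92. These were whole cultures, in which fewer cells of a type and less RNA per cell cannot be told apart.

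Hamp2, the second hepcidin gene of the mouse, was near background on both arrays. Its signal was 19.7 in control cells, where it was just well above background, and 11.4 in Drp1LiKO cells, where it was not. Taking the lowest signal well above background on that array, 15.0, as its ceiling, Hamp2 was at least 1.49-fold lower in Drp1LiKO cells, a log2 ratio of -0.58. The spot noise at this signal was 0.52, so that the bound of Hamp2 was about as large as the noise between spots. In the normalized values that the authors deposited, Hamp2 had 22.4 in control and 10.5 in Drp1LiKO cells, a log2 ratio of -1.08. As a setting, those values were given a shared floor that lay above both, which by itself made the ratio of Hamp2 0.00.

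**Figure D1:**
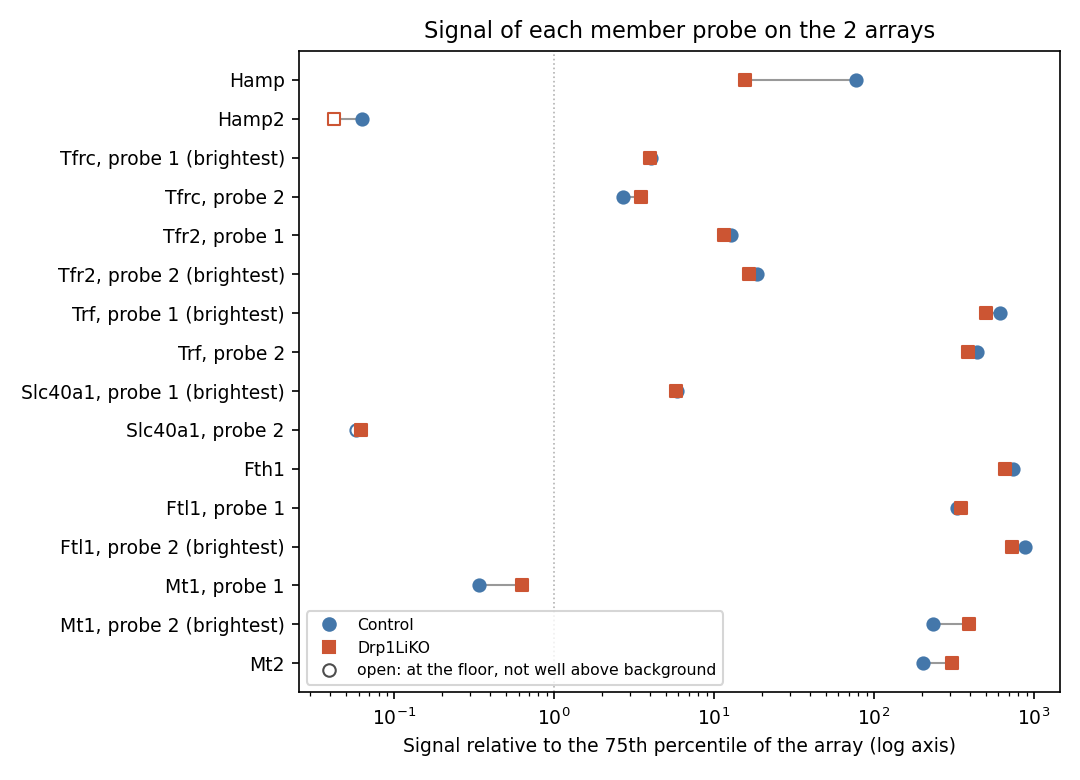
Signal of each of the 16 probes on the 2 arrays, relative to the 75th percentile of its array, on a log axis, with circles for control and squares for Drp1LiKO cells and open symbols for signals raised to the floor because they were not well above background. Hamp has the widest gap, from 77.5 down to 15.6, and the metallothionein probes are the next widest, with the Drp1LiKO square to the right of the control circle.

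Among the genes of iron uptake, no probe passed the threshold. Tfrc encodes transferrin receptor 1, through which most cells take up transferrin and whose mRNA is stabilized when cells lack iron. On its brightest probe, Tfrc had signals of 1261 in control and 1419 in Drp1LiKO cells, a log2 ratio of -0.01 with a spot noise of 0.108. The second Tfrc probe had signals of 844 in control and 1244 in Drp1LiKO cells and a log2 ratio of 0.38 with the same spot noise. The Tfrc probes thus disagreed by more than the noise between spots, and the ratio of the gene ran from -0.19 to 0.18 over the other settings, with both signs.

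Tfr2 encodes transferrin receptor 2, which hepatocytes use to sense the iron load of transferrin. Its brightest probe had signals of 5833 in control and 5861 in Drp1LiKO cells, and its log2 ratio was -0.18 with a spot noise of 0.0912. The second Tfr2 probe had signals of 4017 and 4118 in the same order and a log2 ratio of -0.15 with a spot noise of 0.0929. Both probes had slightly higher signals in Drp1LiKO cells before scaling, and ratios below 0 after division by the larger percentile of that array. The ratio of Tfr2 was also below 0 under 11 of 12 other settings, at -0.13 with spike-in scaling and -0.17 with quantile normalization. With the deposited values it was 0.02.

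Trf encodes transferrin, an abundant plasma protein secreted by hepatocytes. Its brightest probe had signals of 191875 in control and 179058 in Drp1LiKO cells, a log2 ratio of -0.28 with a spot noise of 0.0407. The second Trf probe had signals of 137255 in control and 138072 in Drp1LiKO cells and a log2 ratio of -0.17 with a spot noise of 0.0483. Both Trf probes lay slightly below 0, and the ratio of the gene stayed between -0.28 and -0.13 over the other settings.

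Slc40a1, which encodes the exporter ferroportin that hepcidin binds, did not differ beyond spot noise. Its brightest probe had signals of 1840 in control and 2074 in Drp1LiKO cells, a log2 ratio of -0.01 with a spot noise of 0.106. The other settings gave ratios of Slc40a1 from -0.05 to 0.04. A second probe, for an Ensembl transcript of the gene, was near background, with signals of 14.9 in control, where it was not well above background, and 22.1 in Drp1LiKO cells, and its bound of at least 1.07-fold higher was within a spot noise of 0.523.

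The ferritin genes, which encode the heavy and light chains of the iron storage shell, differed little between the arrays. Fth1 had signals of 232239 in control and 233321 in Drp1LiKO cells, a log2 ratio of -0.18 with a spot noise of 0.0438. The brightest probe of Ftl1 had signals of 276587 in control and 260824 in Drp1LiKO cells, a log2 ratio of -0.27 with a spot noise of 0.0438. On the second Ftl1 probe the direction was the opposite, with signals of 103476 in control and 123818 in Drp1LiKO cells and a log2 ratio of 0.08 with a spot noise of 0.0529. No spot of either array was marked as saturated. Both ferritin ratios were well inside the threshold under every other setting, from -0.18 to -0.04 for Fth1 and from -0.27 to -0.10 for Ftl1.

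**Figure D2:**
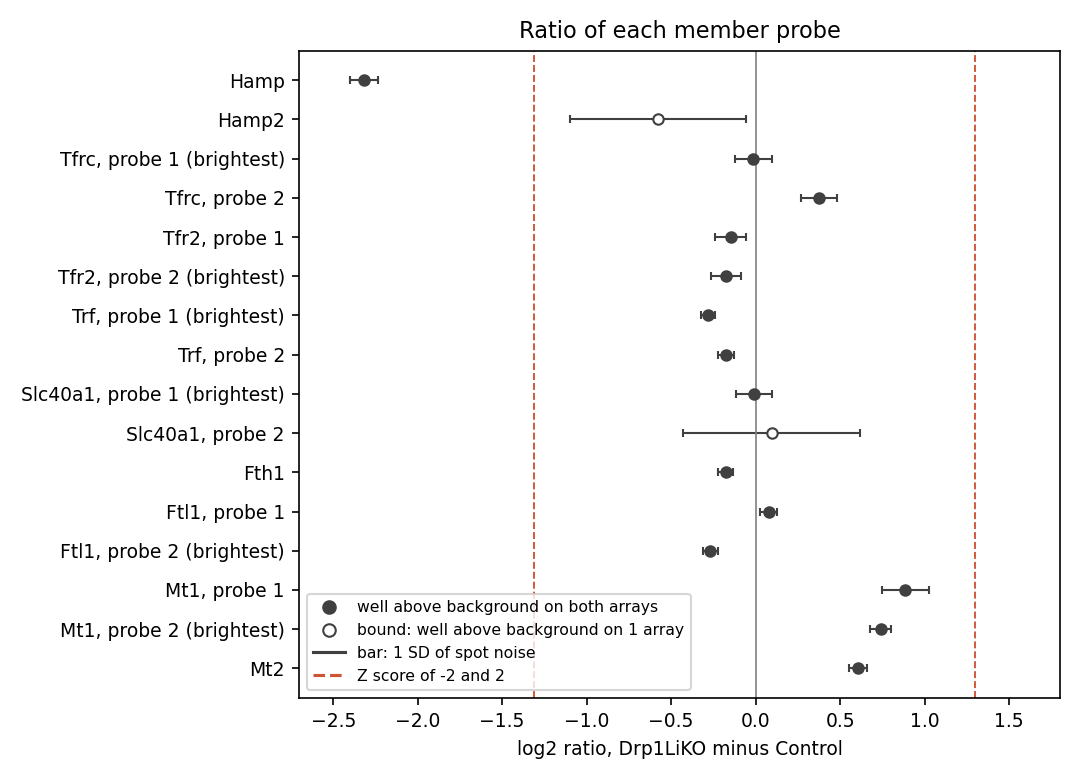
The log2 ratio of each probe, Drp1LiKO minus control, with bars of 1 SD of spot noise, open circles for bounds and dashed lines at Z scores of -2 and 2. Hamp at -2.32 is the single probe outside the dashed lines, and the 3 metallothionein probes lie between 0.61 and 0.88.

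Mt1 and Mt2, the metallothionein genes of the liver, were both higher in Drp1LiKO cells but short of the threshold. The brightest Mt1 probe had signals of 73608 in control and 139630 in Drp1LiKO cells, and Mt1 was 1.67-fold higher, a log2 ratio of 0.74 with a spot noise of 0.0628 and a Z score of 1.15. The second Mt1 probe, designed on a predicted transcript, had signals of 106.9 in control and 224 in Drp1LiKO cells and was 1.85-fold higher, a log2 ratio of 0.88 with a spot noise of 0.139. The ratios of the Mt1 probes differed from each other by about the noise between spots.

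Mt2 had signals of 63750 in control and 110084 in Drp1LiKO cells. It was 1.52-fold higher, a log2 ratio of 0.61 with a spot noise of 0.0523 and a Z score of 0.94. Of all genes compared, 7.79% had a higher ratio than Mt1 and 9.93% a higher ratio than Mt2. Both ratios were above 0 under each of 12 other settings, from 0.74 to 0.85 for Mt1 and from 0.61 to 0.68 for Mt2. When the Z score was taken only among probes of similar signal, where ratios spread less, it was 3.08 for Mt1 and 2.57 for Mt2, so both passed.

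Of the ratios of the 10 genes, 2 were above 0 and 8 below, and 55.5% of all genes compared were below 0. The count below 0 was between 6 and 8 under the other settings, since most of these ratios were small, and 6 of the 10 were within 0.5 of 0 on the log2 scale. The median log2 ratio of the 10 genes was -0.18, beside -0.05 over all genes compared. In order of ratio, Hamp came lowest, and then Hamp2 as a bound, Trf, Ftl1, Fth1, Tfr2, Tfrc, Slc40a1, Mt2 and Mt1. Trf and Ftl1 were closer to each other than their spot noise, as were Fth1 and Tfr2, and Tfrc and Slc40a1.

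**Figure D3:**
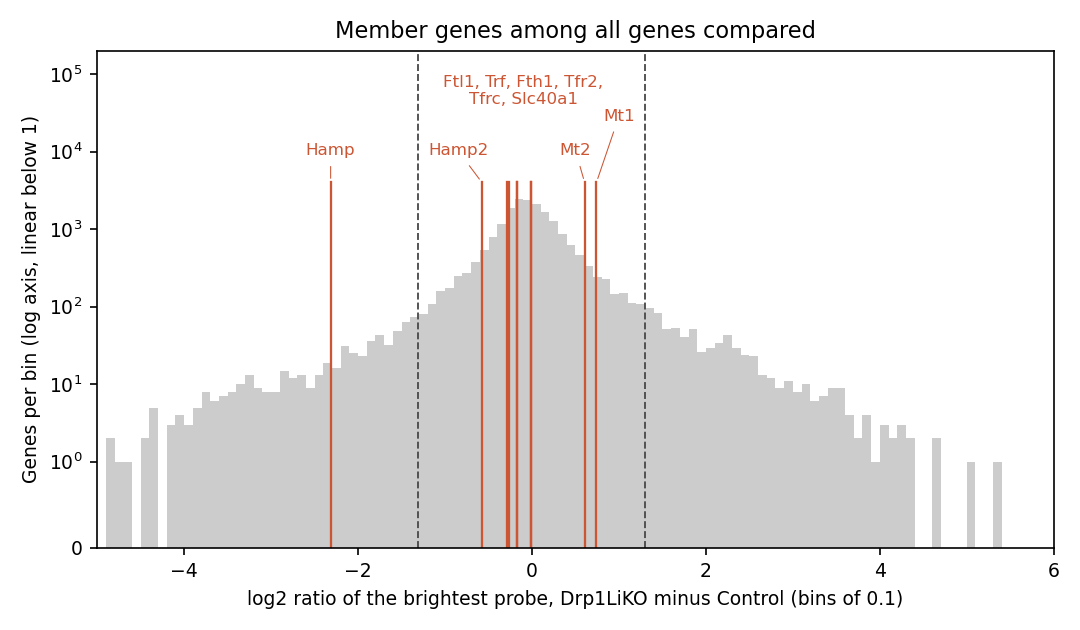
Number of genes per bin of the log2 ratio, Drp1LiKO minus control, for the 20165 genes compared, with red lines for the 10 genes and dashed lines at Z scores of -2 and 2. Hamp lies in the lower tail, Mt1 and Mt2 on the right shoulder, and the others near the centre.

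Of the genes known to set hepcidin transcription, all 25 listed were detected, 7 with a ratio above 0 and 18 below, and 3 were lower and 1 higher past the threshold, with 2 to 4 lower and 0 to 2 higher under the other settings. Their median log2 ratio was -0.25. Bmp4, a BMP ligand, had signals of 1043 in control and 362 in Drp1LiKO cells and a log2 ratio of -1.71, which fell just short of the threshold when dim signals were given no floor. Bmp6, the ligand known for reporting iron load to hepatocytes, had signals of 210 in control and 218 in Drp1LiKO cells and a log2 ratio of -0.13. Bmp2, a ligand made by sinusoidal endothelial cells, went the other way, from 109 in control to 234 in Drp1LiKO cells, a log2 ratio of 0.93. The BMP ligands thus did not share a direction.

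Among the known targets of BMP and SMAD signalling, Atoh8 had signals of 124 in control and 37.7 in Drp1LiKO cells, a log2 ratio of -1.90 that was past the threshold. Id1, another target, had signals of 12623 in control and 9555 in Drp1LiKO cells and a log2 ratio of -0.58. The inhibitory SMAD genes, which the same signal is known to induce, were close to 0, with log2 ratios of -0.19 for Smad6 and 0.02 for Smad7. Fam132b, which encodes erythroferrone, an erythroid hormone that lowers hepcidin, had signals of 142 in control and 35.3 in Drp1LiKO cells and a log2 ratio of -2.19, and its other probe one of -1.10, inside the threshold. Tmprss6, the protease that restrains hepcidin, had a log2 ratio of 0.05, and Hfe, which is mutated in haemochromatosis, one of -0.41.

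On the inflammatory route, Il6 was not well above background in control cells, at a signal of 3.97, and reached 69.7 in Drp1LiKO cells. It was at least 3.37-fold higher, a bound that fell short of the threshold with normexp background correction, with the deposited values and with the Z score among probes of similar signal. The other detected probe of Il6 gave a log2 ratio of 0.92, inside the threshold. Il6st, which encodes the signalling chain of the IL-6 receptor, had a log2 ratio of -0.92, and Stat3 and its target Socs3 had log2 ratios of 0.36 and 0.38. Genes of the acute phase, many of which IL-6 also induces in hepatocytes, gave 3 ratios above 0 and 13 below, with a median of -0.28. Among them, Crp was the single gene past the threshold, and 0 to 3 genes were lower past it under the other settings. Crp was read with signals of 92.6 in control and 7.66 in Drp1LiKO cells, and with the floor used here it was at least 7.02-fold lower. That bound depends on the background, since the log2 ratio of Crp was -1.18 with normexp, still past the threshold. Saa1, a serum amyloid A gene, had a log2 ratio of -1.04 and passed the threshold under 4 other settings, and Fgg, a fibrinogen chain, had the highest of the list at 0.64.

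Among other genes of iron and haem transport, reduction and scavenging, 21 of 25 on the array were detected, 6 with a ratio above 0 and 14 below, and 1 without a usable ratio. Past the threshold, 3 were lower, with 2 to 5 under the other settings, and all encode proteins of the STEAP family, several of which reduce iron and copper before transport. Steap2 had signals of 1577 in control and 266 in Drp1LiKO cells, a log2 ratio of -2.75. Steap1 had signals of 2664 in control and 817 in Drp1LiKO cells, a log2 ratio of -1.89. Steap4 had signals of 59.1 in control cells and was not well above background in Drp1LiKO cells, at 9.17. With the floor used here it was at least 4.48-fold lower, while with normexp its log2 ratio was -0.88, still past the threshold. The fourth member, Steap3, the ferrireductase of the transferrin cycle, had a log2 ratio of -0.27, inside the threshold.

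Lcn2, which encodes a protein that binds iron-loaded siderophores, was the single gene of that list higher past the threshold, with signals of 7165 in control and 26508 in Drp1LiKO cells and a log2 ratio of 1.70. Its Z score fell short of the threshold when dim signals were given no floor. Slc39a14, an importer of iron not bound to transferrin, had a log2 ratio of -0.67. Cp, the ferroxidase ceruloplasmin, had one of -0.64, and Ncoa4, the receptor that delivers ferritin for breakdown, one of 0.01.

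The iron regulatory proteins and the enzymes that turn them over were close to 0, with log2 ratios of the 5 genes from -0.33 for Cul1 to -0.02 for Aco1 and both of these above 0 with the deposited values. Of 12 genes of haem synthesis and breakdown, 6 lay on each side of 0 and none passed the threshold, while under the other settings 0 to 2 were higher and 0 to 1 lower past it. The highest was Hmox1, haem oxygenase 1, with signals of 4452 in control and 9615 in Drp1LiKO cells and a log2 ratio of 0.93. Hmox1 was higher past the threshold under 4 other settings, normexp among them. With the deposited values it was lower past the threshold and had a log2 ratio of -2.81, so its direction depends on which of the deposited files is used. Alas1, the first enzyme of haem synthesis in liver, had signals of 7716 in control and 15802 in Drp1LiKO cells and a log2 ratio of 0.85, and Cpox, a later enzyme, was lowest at -0.47. Of 20 genes of mitochondrial iron import and iron-sulfur cluster assembly, 9 lay above 0 and 11 below, none passed the threshold, 0 to 1 were higher past it under the other settings, and the range ran from -0.54 for Abcb10 to 0.83 for Hscb, a cochaperone of cluster assembly.

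For the metallothioneins, 27 of 30 other genes of zinc and copper handling were detected, 12 above 0 and 15 below, and none passed the threshold here or under the other settings. Their median log2 ratio was -0.03. The ratios ran from -0.66 for Slc30a7, a zinc transporter of the secretory pathway, to 0.46 for Atp7a, a copper pump. Mtf1, which encodes the metal-responsive factor, had a log2 ratio of 0.19, and Slc30a1, a zinc exporter known to be induced by MTF1, one of 0.14. Mt3 and Mt4, the metallothionein genes of other tissues, had log2 ratios of 0.23 and 0.18. Of 9 genes known to respond to glucocorticoids, 5 lay above 0 and 4 below with a median of 0.28, and 1 was past the threshold, with 0 to 3 under the other settings. The highest apart from Lcn2, which is in both lists, was Tat at 1.28 and the lowest Sgk1 at -0.70.

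**Figure D4:**
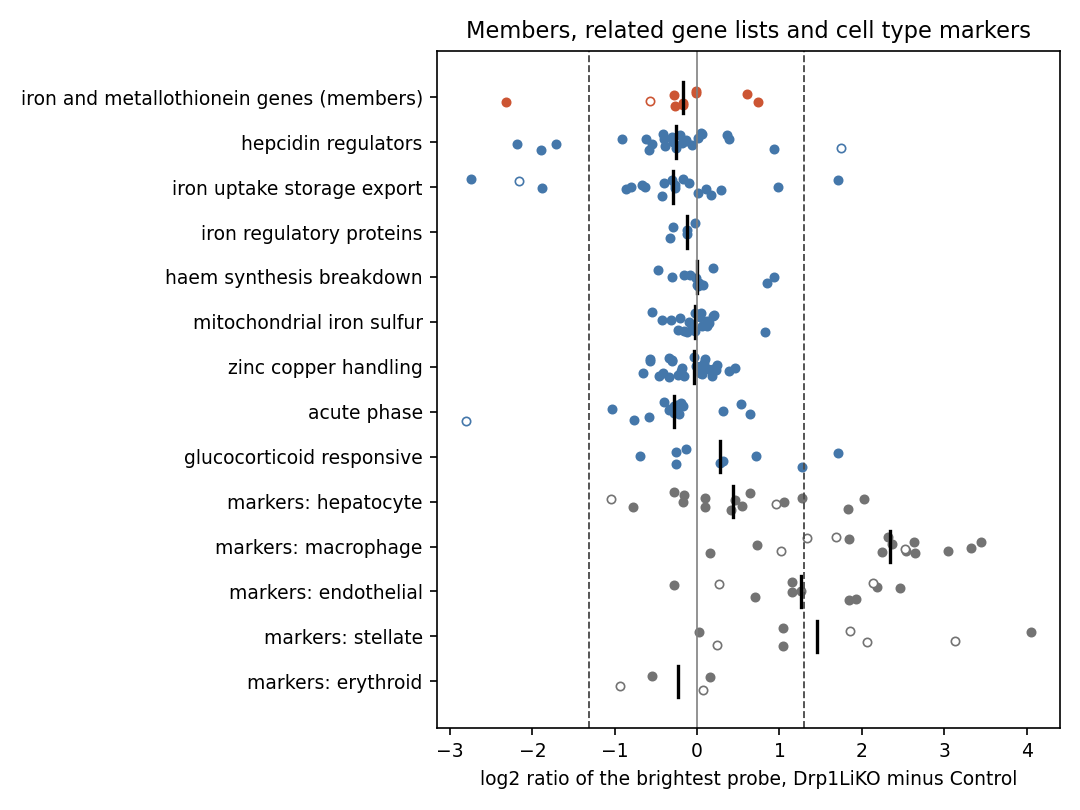
The log2 ratio of the brightest probe of each gene, Drp1LiKO minus control, by gene list, with open circles for bounds, black bars for list medians and dashed lines at Z scores of -2 and 2. The medians of the iron and metal lists lie between -0.29 and 0.00, while that of the macrophage markers is 2.34.

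Most macrophage markers, and part of the endothelial and stellate cell markers, were higher past the threshold on the Drp1LiKO array. Of 17 macrophage markers on the array, 16 were detected, and all 16 had a ratio above 0. The threshold was passed by 13, and by 10 to 15 under the other settings. Of the 13, Clec4f, Vsig4 and Cybb were bounds with control cells not well above background. Vsig4 and Cybb fell short of the threshold with normexp background correction. The summed signal of the 16 was 5656 in control and 22578 in Drp1LiKO cells before scaling. Timd4 was not detected, Cd68 was brightest with signals of 2346 in control and 9593 in Drp1LiKO cells, and the ratios ran from 0.16 for Ptprc to 3.45 for Marco. For Ptprc that is the brightest of 3 detected probes, whose log2 ratios reached 1.77. Of 11 endothelial markers, 10 lay above 0 and Flt4 below at -0.28. The threshold was passed by 5, of which Lyve1 was a bound, and by 4 to 9 under the other settings. The summed signal of the 11 was 4466 in control and 9213 in Drp1LiKO cells before scaling. Of 10 stellate cell markers, Lrat was not detected and 4 passed the threshold, of which Pdgfrb, Col3a1 and Lum were bounds with control cells not well above background. Under the other settings 1 to 6 passed, and with probes well above background on both arrays 1 did. The summed signal of the stellate cell markers detected was 21854 in control and 29293 in Drp1LiKO cells. Acta2 alone, with a log2 ratio of 0.02 on its brightest probe, made up 21437 and 24640 of these sums. The 3 detected probes of Acta2 had log2 ratios from 0.02 to 2.20, so they disagreed. Dcn had the highest ratio of that list at 4.06.

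All 16 hepatocyte markers were detected, 11 above 0 and 5 below with a median of 0.44. Past the threshold, 2 were higher, Ahsg at 1.83 and Cyp3a11 at 2.03, while Cyp2e1 had a log2 ratio of -0.78. Of the 16 markers, 1 to 5 were higher and 0 to 2 lower past the threshold under the other settings. Their summed signal was 333847 in control and 438751 in Drp1LiKO cells before scaling, of which Alb made up 219613 and 266703. Macrophages also express Slc40a1, Hmox1 and Slc11a1, an iron transporter of their phagosomes, which had signals of 117 in control and 261 in Drp1LiKO cells and a log2 ratio of 0.98. Whether these cells had a part in the ratios of the iron and metallothionein genes was not tested. Among erythroid markers, 4 were detected, none of these passed the threshold, and their summed signal was 1048 in control and 1278 in Drp1LiKO cells, of which Alas2 made up 929 and 1176.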

How the data were processed

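RNA of control and Drp1LiKO primary hepatocytes was labeled with Cy3 and hybridized to 1-colour Agilent mouse arrays, 1 per genotype, on 1 slide and in 1 scan. The scanner output deposited by the authors gives each spot an intensity that Feature Extraction had corrected for background. The submitters' processing notes name version 9.5.1.1 of that program and the file header version 10.7.1.1. A table of intensities normalized between arrays was deposited too. Across probes, its control column correlated with the control array at a rank correlation of 1.0 and its Drp1LiKO column with the Drp1LiKO array at 0.9585. The Drp1LiKO column thus did not keep the probe order of the scan, for a reason not known, and the table served as an alternative only.

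Control spots and outlier spots (71 on the control and 63 on the Drp1LiKO array) were dropped. The remaining spots of a probe were averaged on the log2 scale and set relative to the 75th percentile of their array. A probe entered the comparison if either array had it well above background. Where 1 array did not, its signal was set to the lowest one that passed there (18.2 in control and 15.0 in Drp1LiKO cells), or kept if already higher, and the ratio is a bound. A bound pointing the wrong way was given no ratio and left out of list medians. A Z score of 2 was the threshold named by the study. With 1 array per genotype it is a rule of size over all probes compared, and the number of arrays limits the precision. Spot noise was the median SD of the 10 probes nearest in signal among 300 printed 10 times, combined over both arrays.

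The text names each of the 10 genes, Dnm1l, and from each gene list the genes past the threshold, those with the highest and lowest ratio and the brightest marker. Of marker lists it gives counts and examples. Other genes named were chosen for their known role after values were seen. The members and lists were chosen with earlier results of these data known. Gene names and mm9 coordinates are those of the files, and promoters are from RefSeq. The alternatives changed the scaling (quantile, spike-in probes or median), the background (normexp with an offset of 50), the source (the deposited table), the filter on dim probes (stricter or none), the floor (none), the outlier spots (kept), the Z score (robust, or among probes of similar signal) and the choice of probe (median of a gene). The scaling, the ratios and the Z scores were first tested on a Drp1LiKO array simulated from the control array, and the other steps were not. A listed marker gene is not reported here. Python 3.11.15, numpy 2.4.6, pandas 2.3.3, matplotlib 3.10.9, R 4.3.3 and limma 3.58.1 were used.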

Additional observations from a re-analysis of the deposited data

How the results depend on the processing

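The count of genes lower past the threshold, with Hamp as the gene, was 1 under each of the 12 other settings. The median log2 ratio of the members, the 10 genes, was -0.079 with quantile normalization and -0.0475 with the deposited normalized values. The count of genes higher past the threshold was 1 with a robust Z score, under which 8.54% of all genes were higher, and 2 with the Z score among probes of similar signal, under which 3.17% were. Without a filter on dim probes the median of all genes was -0.47, because of probes at the floor, and ratios of the members were the same. Scaling moved the center of the ratios, since the Drp1LiKO array was brighter than the control array by 0.18 (log2) at the 75th percentile and by 0.14 over spike-in probes, and with it the signs of Tfrc and Slc40a1. No paired analysis was possible because each genotype had 1 array. Depth limits Hamp2 and the second Slc40a1 probe, which were near background.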
